A study of Mus musculus with 36 samples.

Results

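The 38 genes described here are sarcomere genes other than the myosins, picked out by symbol from the 56246 genes of the table. The rule uses no measured value, though the list was drawn up with earlier results of these data known. All 38 were found, and all 38 passed the filter on low values, *Tnni1* only through its levels in edited mice (given below). By role they divide into 14 thin filament genes, 14 Z-disc genes, 7 genes of titin, the myosin-binding proteins and the M-band, and 3 genes of sarcomere assembly and turnover. By fibre type, 7 are the isoforms known from slow fibres (*Tnnt1*, *Tnni1*, *Tnnc1*, *Tpm3*, *Myoz2*, *Mybpc1* and *Myom3*), 8 are those known from fast fibres (*Tnnt3*, *Tnni2*, *Tnnc2*, *Actn3*, *Mybpc2*, *Myoz1*, *Myoz3* and *Myom2*) and 23 are shared.

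RNA came from tibial shafts freed of marrow, a tissue that is largely cortical bone. Poly(A) RNA was sequenced from 36 mice aged 6 months, 12 in each of 3 groups with 6 males and 6 females. For wild-type (WT) mice the labels give no injection. The other 24 mice carried 2 copies of a large human genomic clone with *LMNA* bearing the progeria mutation G608G (*LMNA* G/G), on top of their own mouse *Lmna*. Of these, 12 had received saline and 12 an adenine base editor (ABE), split over a pair of AAV9 vectors and rejoined in the cell, by injection behind the eye 14 days after birth. The transgene also holds a second human gene, *RAB25*, and both *LMNA* G/G groups carry it. The comparison of saline with WT asks what the transgene changed, and that of ABE with saline what the editor changed. The study calls the groups littermates, but the labels give no litters, and the animal numbers of WT mice run separately from those of the other groups. Litter or handling and genotype therefore cannot be told apart here. The same 12 WT libraries serve both comparisons with WT. No WT mice are labelled as given saline or the vector.

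Muscle contracts when thin filaments of actin slide along thick filaments of myosin within the sarcomere. Tropomyosin and the troponins C, I and T lie on actin and make the sliding depend on calcium, and slow and fast fibres use different genes for most of these proteins. Thin filaments are anchored and crosslinked at the Z-disc by alpha-actinins and their partners, titin spans from the Z-disc to the M-band, and nebulin and the leiomodins act on thin filament length. Most of these proteins are made chiefly by striated muscle fibres, while *Des*, *Flnc* and the tropomyosin genes also have products in smooth muscle or in many other cells.

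The start regions of 3 members are shown because they are the most abundant member, the slow troponin with the largest difference between ABE and saline, and a member that departed from the common muscle amount. Each is the 250 bases just before the RefSeq start (GRCm38.p6), written 5′ to 3′ on the gene's strand, with capitals at matches to motifs of muscle promoters, searched on both strands. The motifs were the E-box with the letters CANNTG, the MCAT element with the letters CATTCC, the TATA box as TATAAA, and the MEF2 site and CArG box by name. *Acta1*, skeletal muscle actin, lies at chr8:123891769-123894751 on the minus strand, and its window is chr8:123894776-123895025. *Tnnc1*, slow and cardiac troponin C, lies at chr14:31208312-31211729 on the plus strand, and its window is chr14:31208062-31208311. *Des*, desmin, lies at chr1:75360329-75368579 on the plus strand, and its window is chr1:75360042-75360291. These windows lie outside the GENCODE genes.
Acta1: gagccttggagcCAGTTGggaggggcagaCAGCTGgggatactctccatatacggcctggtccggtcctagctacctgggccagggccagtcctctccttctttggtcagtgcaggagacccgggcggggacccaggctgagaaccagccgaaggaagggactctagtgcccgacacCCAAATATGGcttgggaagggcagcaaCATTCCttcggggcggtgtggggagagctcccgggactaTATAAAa
Tnnc1: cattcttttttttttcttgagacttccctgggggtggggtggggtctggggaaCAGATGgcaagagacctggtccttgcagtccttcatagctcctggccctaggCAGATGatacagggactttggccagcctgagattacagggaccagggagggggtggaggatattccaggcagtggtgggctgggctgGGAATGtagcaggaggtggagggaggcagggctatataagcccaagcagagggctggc
Des: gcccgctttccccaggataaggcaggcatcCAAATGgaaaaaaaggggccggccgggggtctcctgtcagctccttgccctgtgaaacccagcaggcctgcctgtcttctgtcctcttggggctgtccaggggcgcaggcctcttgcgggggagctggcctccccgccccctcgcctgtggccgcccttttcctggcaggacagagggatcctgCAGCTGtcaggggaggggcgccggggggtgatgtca
The *Acta1* window held E-boxes beginning 238 and 221 bases before the start, a CArG box at 73, an MCAT element at 46 and TATAAA at 7. That of *Tnnc1* held E-boxes at 197 and 145 and an MCAT element on the other strand at 58. That of *Des* held E-boxes at 220 and 36. Windows were at hand for 28 of the 38 genes (33 windows, 5 genes having 2). An E-box lay in 81.8% of these against 66.2% of all 32851 windows, MCAT in 21.2% against 12.6%, TATAAA in 9.09% against 12.4%, a MEF2 site in 15.2% against 2.92% and a CArG box in 15.2% against 1.47%. The MEF2 and CArG shares of these genes each rest on 5 of the 33 windows, and the overlapping windows of *Ldb3* hold the same CArG box. E-boxes can overlap other motifs, and matches are descriptions of letters only.

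Levels are given as TPM, transcript numbers corrected for gene length, so that genes can be set beside each other. Libraries were rescaled so that the median ratio of a gene to its geometric mean over the libraries is the same in each (scaled TPM). That median was taken over the 23632 genes above 0 in every library. Reads on genes ran from 63824773 to 86981913 in WT, from 63764802 to 116206662 in saline and from 48064068 to 98760210 in ABE libraries. ABE replicate 1, a female, stood apart: its scaling factor was 0.22, where the next smallest was 0.61 and the largest 1.57. After scaling it had the highest level of muscle genes of the 36 libraries. TPM are divided by the factor, so its small factor raises all its scaled levels, and the rank cannot be told apart from the scaling. The highest ABE values of *Acta1*, *Tcap* and *Ttn* below come from this library. The labels do not say more of the replicates than the mouse each came from. The animal numbers of saline replicate 9 and ABE replicates 2 and 11 hold the letters WT, which the labels do not explain. In bulk tissue, fewer muscle fibres and less RNA per fibre cannot be told apart. Markers of bone were present in all groups (osteoblast list, 5 genes, summed medians 1114, 1107 and 1080 scaled TPM in WT, saline and ABE). The osteocyte list (5 genes, 4 tested) had summed medians of 21.5, 358 and 256 scaled TPM with ranges 9.91 to 48.0, 169 to 488 and 172 to 344, and its 4 tested genes rose in both comparisons with WT. The marrow list (6 genes, 5 tested) had medians of 1087, 2013 and 1219 with ranges 545 to 1805, 793 to 2880 and 259 to 3084, and 4 of 5 fell in ABE against saline. The adipocyte list (4 genes, 3 tested) had medians of 46.3, 47.9 and 14.4 with ranges 14.8 to 103, 11.3 to 83.0 and 6.37 to 32.2, and 3 of 3 fell in ABE against saline. The smooth muscle and pericyte list (7 genes, 6 tested) had medians of 27.2, 26.6 and 42.9 with ranges 15.6 to 49.3, 19.4 to 56.1 and 26.9 to 58.5, and 4 of 6 rose in ABE against saline. Of cells that come along with muscle, the tendon and fascia list (5 genes, 4 tested) had summed medians of 14.1, 13.3 and 41.6 scaled TPM. Its ranges were 5.14 to 38.1, 2.06 to 28.5 and 11.1 to 59.9, and its 4 tested genes all rose in ABE against saline. Among these, *Tnmd* had means of 0.361, 0.339 and 0.893 scaled TPM in WT, saline and ABE. It reached the filter mean of 0.5 only through ABE, so its place in that count carries no weight. The satellite cell and regeneration list (7 genes, 1 tested) had medians of 0.512, 2.07 and 4.08 with ranges 0.0712 to 1.69, 0.301 to 4.46 and 1.04 to 9.20. The cardiac list (8 genes, 1 tested) stayed low, at medians of 0.92, 0.933 and 1.62 and no library above 2.95. Their part in the results below was not tested.

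Most of the 38 genes rose in both *LMNA* G/G groups over WT (28 with saline, 37 with ABE), and 34 rose in ABE over saline. *Tpm3* and the slow troponins had differences below 0 in saline against WT, which did not pass. *Acta1* had the highest mean of the 38. In WT its lowest, median and highest libraries were 52.9, 285 and 870 scaled TPM, in saline 88.5, 651 and 2072, and in ABE 284, 1737 and 3758. The groups overlapped, but 10 of 12 ABE libraries and 4 of 12 saline libraries lay above the highest WT library. As means these were 311 ± 211 (SD, n = 12), 826 ± 576 (SD, n = 12) and 1743 ± 897.5 (SD, n = 12). On the log2(scaled TPM + 0.5) scale used for every test (limma, sex as covariate, adjusted over 15900 genes), the difference for *Acta1* was 1.38 (SE 0.45, adjusted p = 0.011) for saline against WT, 2.60 (SE 0.45, adjusted p = 6.2e-06) for ABE against WT and 1.22 (SE 0.45, adjusted p = 0.0254) for ABE against saline. *Actc1*, the actin of heart and of developing skeletal muscle, was scarce, with medians of 0.393, 3.43 and 8.20 scaled TPM. Its ranges were 0.0847 to 3.92 in WT, 0.392 to 11.2 in saline and 2.24 to 20.6 in ABE, so that 10 of 12 ABE libraries were above every WT library. It had the largest difference of the 38 in saline against WT, 1.72 (SE 0.39, adjusted p = 0.000448).

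In saline against WT, 28 of the 38 genes rose and 0 fell, where 27.7% of all genes tested rose and 24.6% fell. Without adjustment 31 had a p under 0.05, all higher, and limma-voom on recovered reads called 28, all higher. The median difference of the 38 was 1.25 on the log2 scale, against 0.02 over all genes. The 10 that did not pass were *Csrp3* (0.64), *Lmod3* (0.59), *Mybph* (0.47), *Myoz2* (0.63), *Myoz3* (0.75), *Unc45b* (0.59), *Tnnc1* (-0.53), *Tnni1* (-0.36), *Tnnt1* (-0.09) and *Tpm3* (-0.20). All 4 values below 0 belong to slow thin filament genes. In ABE against WT, 37 rose and 1, *Tpm3*, fell, where 35.0% of all genes rose and 35.2% fell, and the median difference was 2.47. In ABE against saline 34 rose and 0 fell, where 23.2% of all genes rose and 25.2% fell, and the median difference was 1.20. The 4 that did not pass were *Actn3* (0.84, adjusted p = 0.116), *Mybpc2* (1.04, adjusted p = 0.0501), *Mybph* (0.44, adjusted p = 0.204) and *Tpm3* (-0.06, adjusted p = 0.679). Without adjustment 35 had a p under 0.05, all higher, and limma-voom called 31, all higher. This last count depended on the scaling. With TPM as deposited, 14 of the 38 were called in ABE against saline, all higher, while the median of all genes moved to -0.27 with 548 genes higher and 6486 lower, and that of the 38 to 0.82. The all-gene median moved likewise to -0.13 in saline against WT, with 1029 genes higher and 3595 lower, and to -0.42 in ABE against WT, with 1480 higher and 9276 lower, and 34 and 37 of the 38 stayed above 0. The count in ABE against saline was 27 without ABE replicate 1 and 25 without saline replicate 4.

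**Figure D1:**
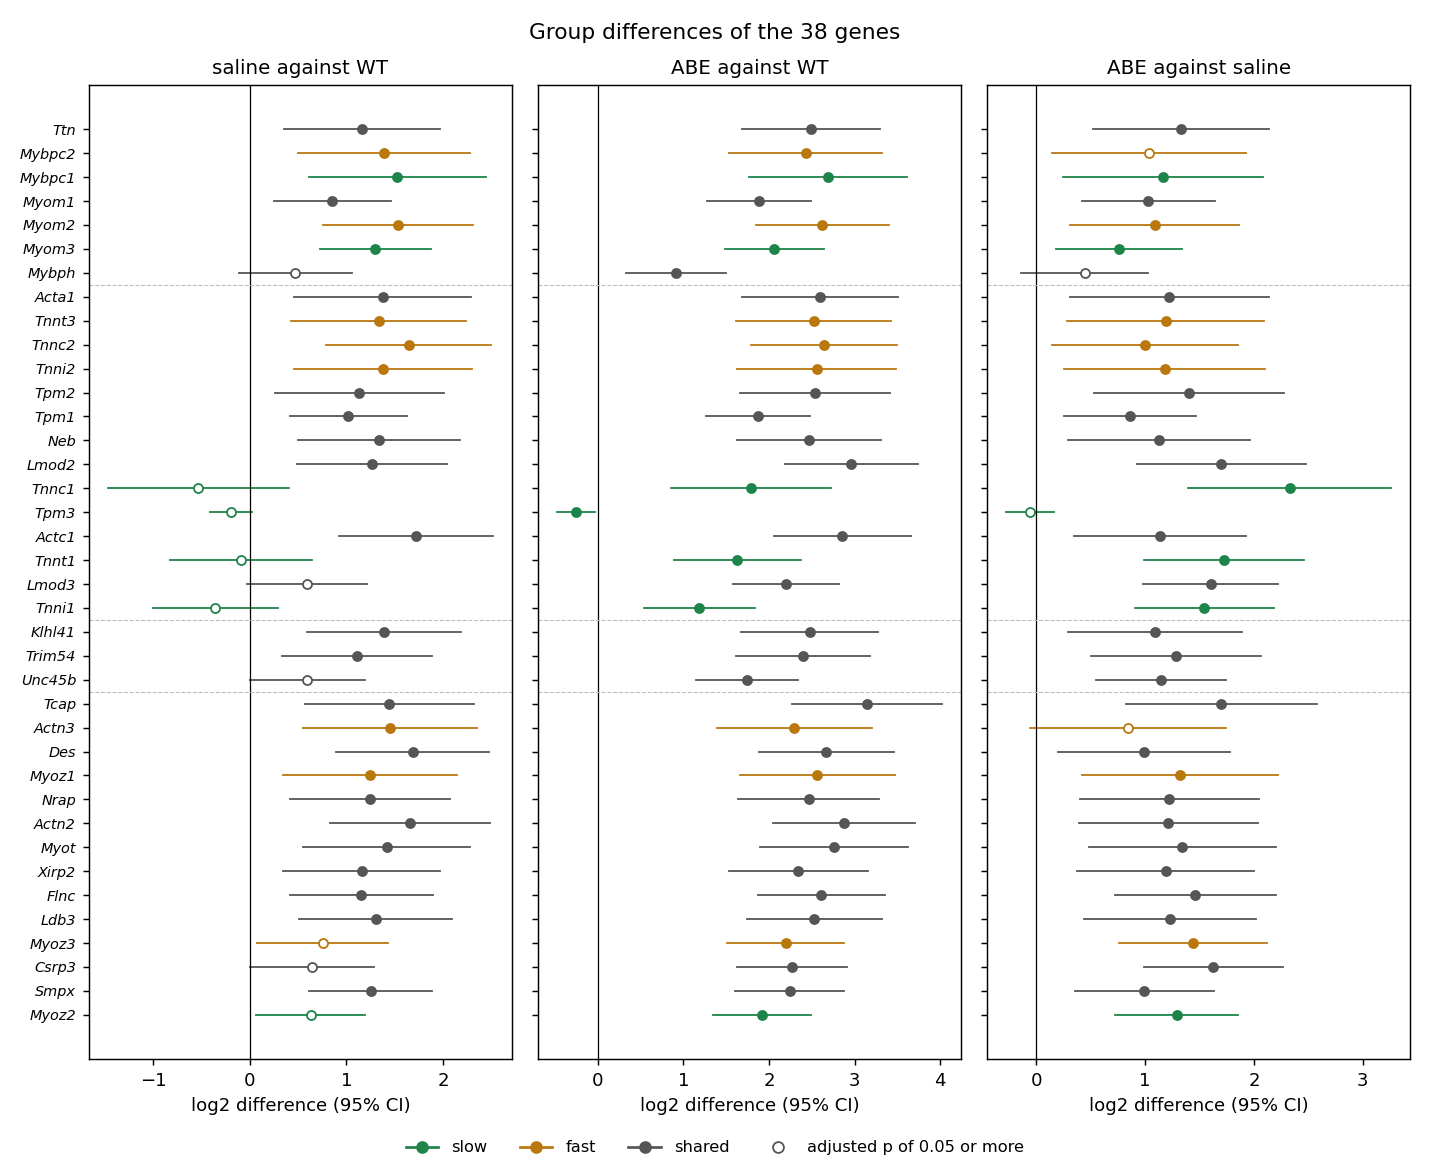
Each row is 1 of the 38 genes, grouped by role, and the horizontal axes give the difference in log2(scaled TPM + 0.5) with its 95% confidence interval for each of the 3 comparisons (12 libraries a group). Filled points passed an adjusted p of 0.05, and colour marks slow, fast and shared genes. In saline against WT the 4 genes *Tnnc1*, *Tpm3*, *Tnnt1* and *Tnni1*, all listed as slow, lie left of 0 while the rest lie right of it.

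By role, the thin filament genes rose in 9 of 14 cases in saline against WT, in 13 of 14 in ABE against WT with 1 lower, and in 13 of 14 in ABE against saline. *Tnnt3* and *Tnni2* are the fast troponin T, which binds tropomyosin, and the fast troponin I, which inhibits contraction at rest. Both passed in all 3 comparisons, and their median levels in WT, saline and ABE were 79.9, 179 and 539 scaled TPM for *Tnnt3* and 42.6, 99.9 and 302 for *Tnni2*. *Neb*, the giant nebulin, differed by 1.34, 2.47 and 1.13 in the 3 comparisons, in the order saline against WT, ABE against WT and ABE against saline that is kept below, and passed in each. *Tpm1* and *Tpm2*, the other striated muscle tropomyosins, passed in each as well, at 1.02, 1.88 and 0.86 for *Tpm1* and 1.14, 2.54 and 1.40 for *Tpm2*. *Lmod2*, a leiomodin that elongates thin filaments, differed by 1.26, 2.96 and 1.70 and its relative *Lmod3* by 0.59, 2.19 and 1.60. *Lmod3* had medians of 0.931, 1.61 and 7.22 scaled TPM, and 8 of 12 ABE libraries were above the highest saline library.

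The Z-disc genes rose in 11, 14 and 13 of 14 cases. *Tcap*, which caps titin at the Z-disc, had the largest difference of the 38 in ABE against WT, 3.14 (SE 0.43, adjusted p = 1.67e-07). Its lowest, median and highest libraries were 7.45, 44.2 and 133 scaled TPM in WT, 22.1, 120 and 363 in saline and 84.8, 402 and 1053 in ABE, with 11 of 12 ABE libraries above every WT library. *Des*, desmin of the intermediate filaments that tie Z-discs together, had medians of 16.1, 49.7 and 102 scaled TPM. Above the highest WT library lay 11 of 12 ABE libraries, and above the highest saline library 1 of 12, and its differences were 1.69, 2.67 and 0.99. *Actn2*, alpha-actinin of all fibres, differed by 1.66, 2.87 and 1.21, and *Actn3*, that of fast fibres, by 1.46, 2.30 and 0.84. *Flnc* (filamin C), *Myot* (myotilin), *Ldb3*, *Nrap*, *Xirp2*, *Smpx* and *Myoz1* passed in all 3 comparisons, with differences of 1.15 to 1.42 in saline against WT and 0.99 to 1.46 in ABE against saline. *Csrp3*, *Myoz2* and *Myoz3* passed in both comparisons of ABE and missed in saline against WT. *Csrp3*, the muscle LIM protein, had medians of 0.648, 1.28 and 3.90 scaled TPM.

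Of the titin, myosin-binding and M-band genes, 6, 7 and 5 of 7 rose. *Ttn*, titin, had lowest, median and highest libraries of 6.27, 31.2 and 89.7 scaled TPM in WT, 13.0, 58.7 and 195 in saline and 42.8, 177.5 and 349 in ABE, and differed by 1.16, 2.49 and 1.33. *Mybpc1* and *Mybpc2*, the slow and fast myosin-binding proteins C, rose in both comparisons with WT, by 1.53 and 1.39 in saline and 2.69 and 2.43 in ABE. The myomesins of the M-band *Myom1*, *Myom2* and *Myom3* passed in all 3 comparisons, with 0.86, 1.54 and 1.30 in saline against WT. *Mybph*, a smaller myosin-binding protein, passed in ABE against WT alone (0.92, adjusted p = 0.00527). Of the assembly and turnover genes, *Klhl41* and *Trim54*, both linked to ubiquitin ligases, passed in all 3 comparisons, and *Unc45b*, a chaperone of myosin, in both comparisons of ABE. Among genes of the pathway outside the 38, the myosin list (9 genes) rose in 3, 9 and 8 cases, and 35 other sarcomere genes (31 tested) rose in 26, 28 and 26 and fell in 1, 1 and 3 cases. In the latter list, *Ankrd23* had means of 0.2365, 0.5171 and 1.235 scaled TPM in WT, saline and ABE. It reached the filter only through ABE, so its place in these counts carries no weight.

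Within each sex the counts for saline against WT were unequal, though the test of the difference between the sexes passed for 0 genes. In males alone, saline against WT gave 33 of 38 higher and 1 lower, *Tpm3*, where 26.7% of all genes rose and 25.1% fell within males. In females alone, 0 of 38 rose and 1, *Tnnc1*, fell by 1.47 on the log2 scale (adjusted p = 0.0491), where 14.3% of all genes rose and 13.4% fell within females. The median difference of the 38 was 2.05 in males and 0.41 in females. The male effect minus the female effect was called by limma for 0 of 38 genes, while 22 of 38, all with the larger value in males, had an unadjusted p under 0.05, and 1.55% of all genes were called. The comparison of ABE with WT gave 36 higher in males (30.3% of all genes) and 34 in females (31.3%), and the sex difference was called for 1 of 38 genes, *Tnnc1*, at 2.88 in males over females, where 3.81% of all genes were called. Against saline, ABE gave 5 higher in males, where 6.69% of all genes did, and 33 in females, where 21.6% did. The 5 in males were the slow troponins *Tnnt1*, *Tnni1* and *Tnnc1* and the leiomodins *Lmod2* and *Lmod3*. Of these, *Tnni1* reached the filter only through ABE, so its place in that count carries no weight. For this comparison 0 of 38 genes had a called sex difference by limma and 0 an unadjusted p under 0.05, where 0.0566% of all genes were called, so the counts within each sex are not shown to differ.

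The 3 slow troponins had differences below 0 in saline against WT and passed as higher in both comparisons of ABE. *Tnnc1* had lowest, median and highest libraries of 0.146, 2.22 and 9.50 scaled TPM in WT, 0.207, 1.13 and 3.14 in saline and 2.01, 6.11 and 39.7 in ABE. Saline libraries lay within the WT range, 9 of 12 ABE libraries lay above the highest saline library and 4 above the highest WT library. *Tnni1*, slow troponin I, ran at 0.00182, 0.414 and 2.09 in WT, 0.0372, 0.139 and 0.611 in saline and 0.301, 1.21 and 8.78 in ABE. Its lowest WT library held 2 reads, so levels there rest on counting error, and 10 of 12 ABE libraries were above every saline library. The means of *Tnni1* were 0.521, 0.208 and 2.16 scaled TPM in WT, saline and ABE. It reached the filter mean of 0.5 only through ABE, so its calls as higher in ABE carry no weight. *Tnnt1*, slow troponin T, ran at 0.384, 1.61 and 5.45 in WT, 0.603, 1.25 and 3.89 in saline and 1.75, 4.02 and 27.9 in ABE. These 3 genes had differences in ABE against saline of 2.33 (SE 0.46, adjusted p = 0.000609) for *Tnnc1*, 1.54 (SE 0.32, adjusted p = 0.000744) for *Tnni1* and 1.73 (SE 0.36, adjusted p = 0.000853) for *Tnnt1*, and those of *Tnnc1* and *Tnnt1* were the largest of the 38. WT males and females differed: in 5 of 6 WT males *Tnnc1* was 0.146 to 0.365 scaled TPM, while the other, replicate 10, had 4.79 and the WT females 2.14 to 9.50. The same male replicate 10 was the WT male with *Tnni1* at 0.960 and *Tnnt1* at 3.13, where the other 5 had 0.00182 to 0.0445 and 0.384 to 0.597. Among ABE libraries, males replicate 9 (39.7, 8.78 and 27.9 scaled TPM of *Tnnc1*, *Tnni1* and *Tnnt1*) and replicate 11 (21.0, 5.30 and 17.0) were the highest.

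**Figure D2:**
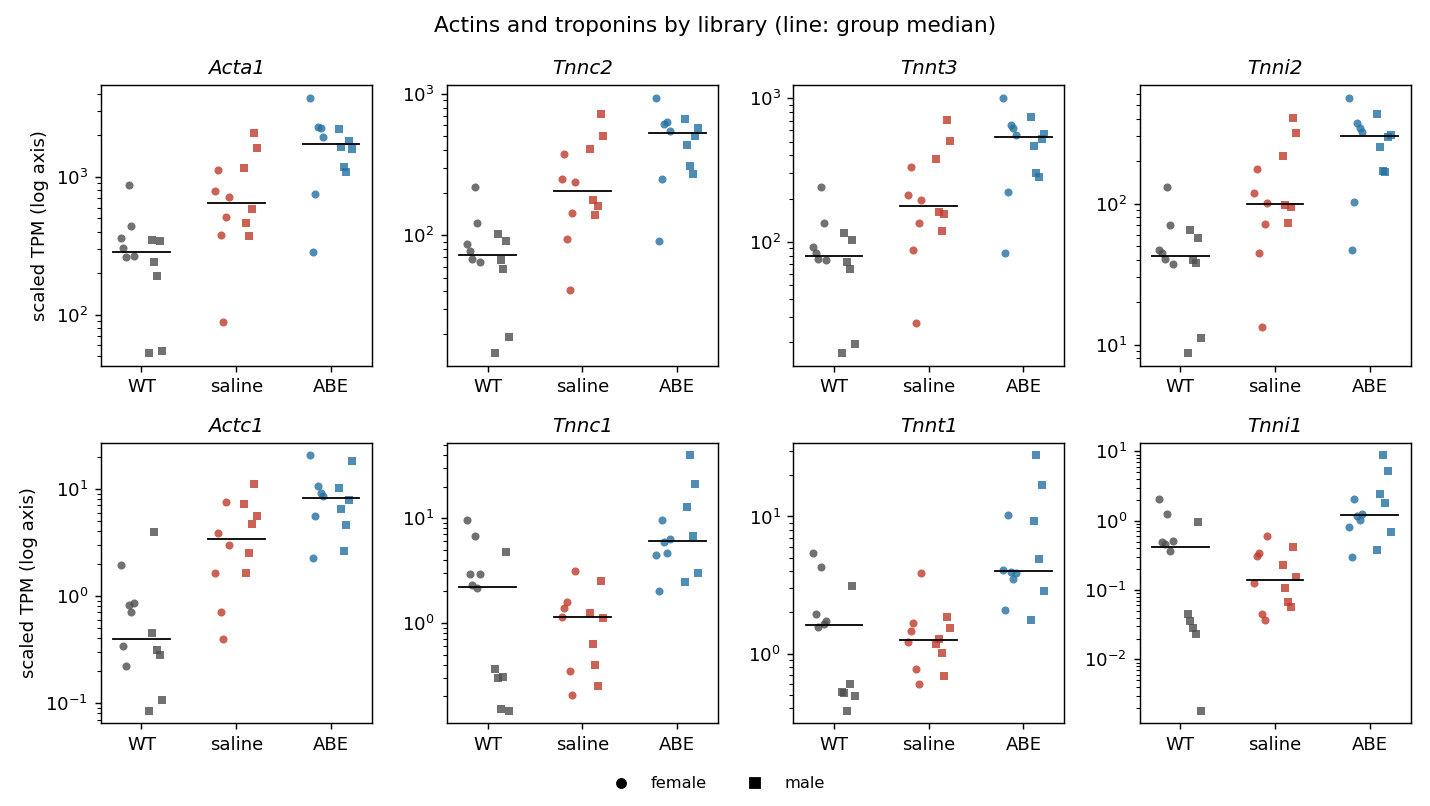
Scaled TPM (log axis) of the actins and of the 3 slow and 3 fast troponins in each of the 36 libraries, with squares for males, circles for females and a line at each group's median. The fast genes and *Acta1* step up from WT to saline to ABE, while *Tnnc1*, *Tnnt1* and *Tnni1* are low in 5 of 6 WT males and reach their highest level in ABE male replicate 9.

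*Tpm3*, a slow tropomyosin gene whose other products are made in many cells, rose in 0 of the 3 comparisons. Its lowest, median and highest libraries were 9.57, 11.04 and 12.7 scaled TPM in WT, 6.84, 9.82 and 11.3 in saline and 5.61, 8.63 and 16.3 in ABE. It fell by 0.25 on the log2 scale in ABE against WT (SE 0.11, adjusted p = 0.0354) and its differences in saline against WT (-0.20, adjusted p = 0.125) and ABE against saline did not pass. The call rests near the threshold: with 1 library left out the value ran from -0.33 to -0.20 and the call was lost in 9 of 36 fits (without WT replicate 8, 10 or 11, or ABE replicate 1, 4, 5, 6, 7 or 12). It was also lost with no filter (adjusted p = 0.052) and in a fit on only the 2 groups (adjusted p = 0.0532). The other slow members *Myoz2*, *Mybpc1* and *Myom3* had differences above 0 in all 3 comparisons, though *Myoz2* did not pass in saline against WT. They had medians of 0.557, 0.927 and 3.05, of 14.6, 42.3 and 96.0, and of 0.599, 2.63 and 4.54 scaled TPM in WT, saline and ABE. The slow list, *Tpm3* included, had a median difference of -0.09 in saline against WT and 1.79 in ABE against WT. The sign in saline against WT rests on counting *Tpm3* as slow. Without it, the median lies midway between *Tnnt1* (-0.09) and *Myoz2*, above 0. The fast list had 1.39 and 2.54.

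Ratios of a slow gene to its fast counterpart within a library do not depend on the scaling of libraries, apart from the pseudocount of 0.5. *Tnnc1*/*Tnnc2* had a mean log2 ratio of -5.00 ± 1.15 (SD, n = 12) in WT, -7.18 ± 0.93 (SD, n = 12) in saline and -5.85 ± 1.48 (SD, n = 12) in ABE. The ratio was lower in saline than in WT by 2.18 (difference -2.18, two-sided permutation test within sex, adjusted p = 0.0003 over the 15 ratio tests). Between ABE and WT it differed by -0.85 (adjusted p = 0.23, permutation test) and in ABE against saline by 1.33 (adjusted p = 0.0504, permutation test). *Tnni1*/*Tnni2* was lower in saline than in WT (difference -1.73, adjusted p = 0.00412, permutation test), as was *Tnnt1*/*Tnnt3* (-1.43, adjusted p = 0.0107, permutation test). For *Myoz2*/*Myoz1* and *Mybpc1*/*Mybpc2* none of the 3 comparisons passed, with differences from -0.65 to 0.26. The *Myoz2*/*Myoz1* difference in ABE against WT hung on the pseudocount, at -1.02 with a pseudocount of 1 (adjusted p = 0.00681, permutation test) and 0.63 with none (adjusted p = 0.154, permutation test). Because slow troponins lie near the pseudocount, the ratios were also taken without it, all 36 libraries being above 0, an alternative chosen after the data were seen. Then *Tnnc1*/*Tnnc2* differed by -2.17 in saline against WT (adjusted p = 0.0021, permutation test), by -0.19 in ABE against WT (adjusted p = 0.775, permutation test) and by 1.98 in ABE against saline (adjusted p = 0.0132, permutation test). *Tnni1*/*Tnni2* then no longer passed in saline against WT (-1.51, adjusted p = 0.0847, permutation test) and did in ABE against saline (2.05, adjusted p = 0.0174, permutation test). *Tnnt1*/*Tnnt3* stayed past the threshold in saline against WT (-1.36, adjusted p = 0.0174, permutation test). The mean *Tnnc1*/*Tnnc2* ratio without pseudocount was -6.89 in WT males and -4.69 in WT females, -8.54 and -7.39 in saline, and -5.60 and -6.36 in ABE.

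**Figure D3:**
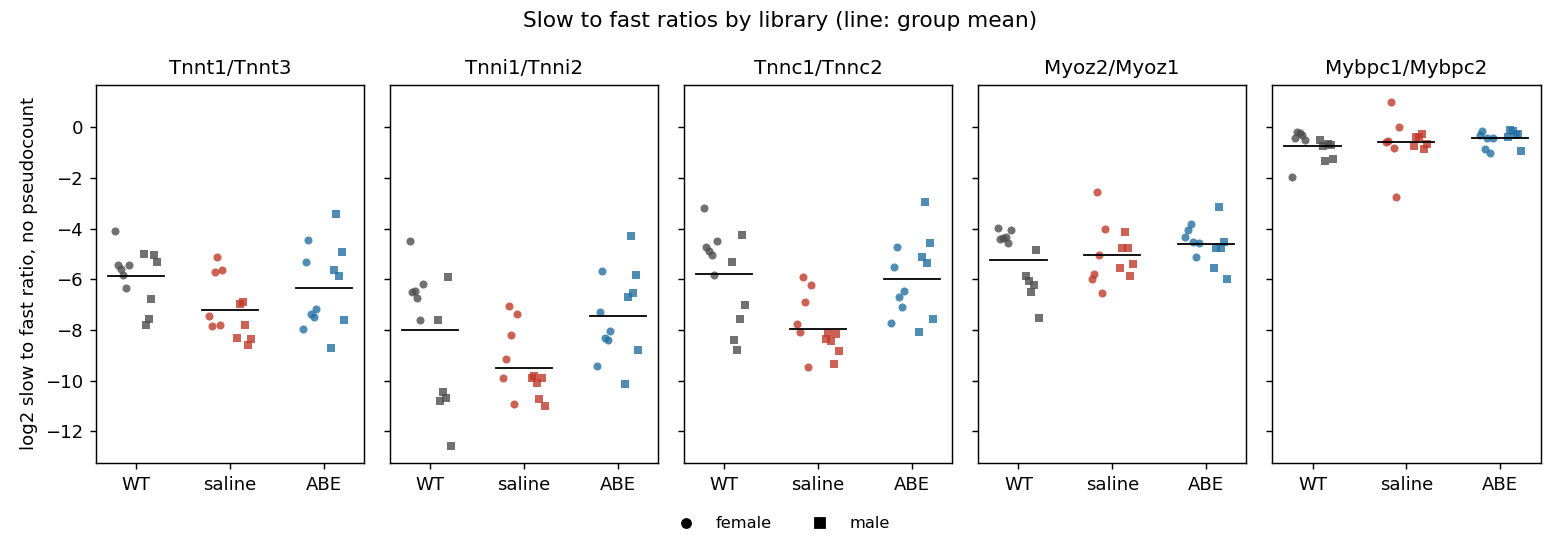
Log2 ratio of scaled TPM of the slow to the fast gene, without pseudocount, in each library for the 5 pairs, with squares for males, circles for females and a line at the group mean. The *Tnnc1*/*Tnnc2* means are -5.79 in WT, -7.97 in saline and -5.98 in ABE, and the difference of *Myoz2*/*Myoz1* in ABE against WT is 0.63.

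To ask which members depart from the common amount of muscle, a reference score was formed for each library as the mean log2 level of 18 muscle genes that are neither members nor myosins, such as *Ckm* (creatine kinase), *Ryr1* and *Cacna1s* (calcium release) and *Mb* (myoglobin). The score was 2.78 ± 0.87 (SD, n = 12) in WT, 3.79 ± 1.04 (SD, n = 12) in saline and 5.10 ± 0.87 (SD, n = 12) in ABE. Its ranges, 1.18 to 4.30, 1.61 to 5.39 and 3.10 to 6.45, overlapped only in part between WT and ABE. Over the 36 libraries with group and sex in the model, 29 of 38 members had slopes on the score within 0.25 of 1 (log2 per log2). The 9 below were *Tpm3* (-0.17), *Tnni1* (0.21), *Tnnt1* (0.26), *Mybph* (0.37), *Tnnc1* (0.48), *Myoz2* (0.56), *Csrp3* (0.57), *Myom3* (0.58) and *Actc1* (0.70). Of these 9, 6 are on the slow list, among them *Tpm3*, whose level fell as the score rose. The pseudocount flattens the slope of scarce genes such as *Tnni1*. *Tnni2* (1.19), *Acta1* (1.18) and *Tnnt3* (1.17) were the steepest and *Ttn* was at 1.03.

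**Figure D4:**
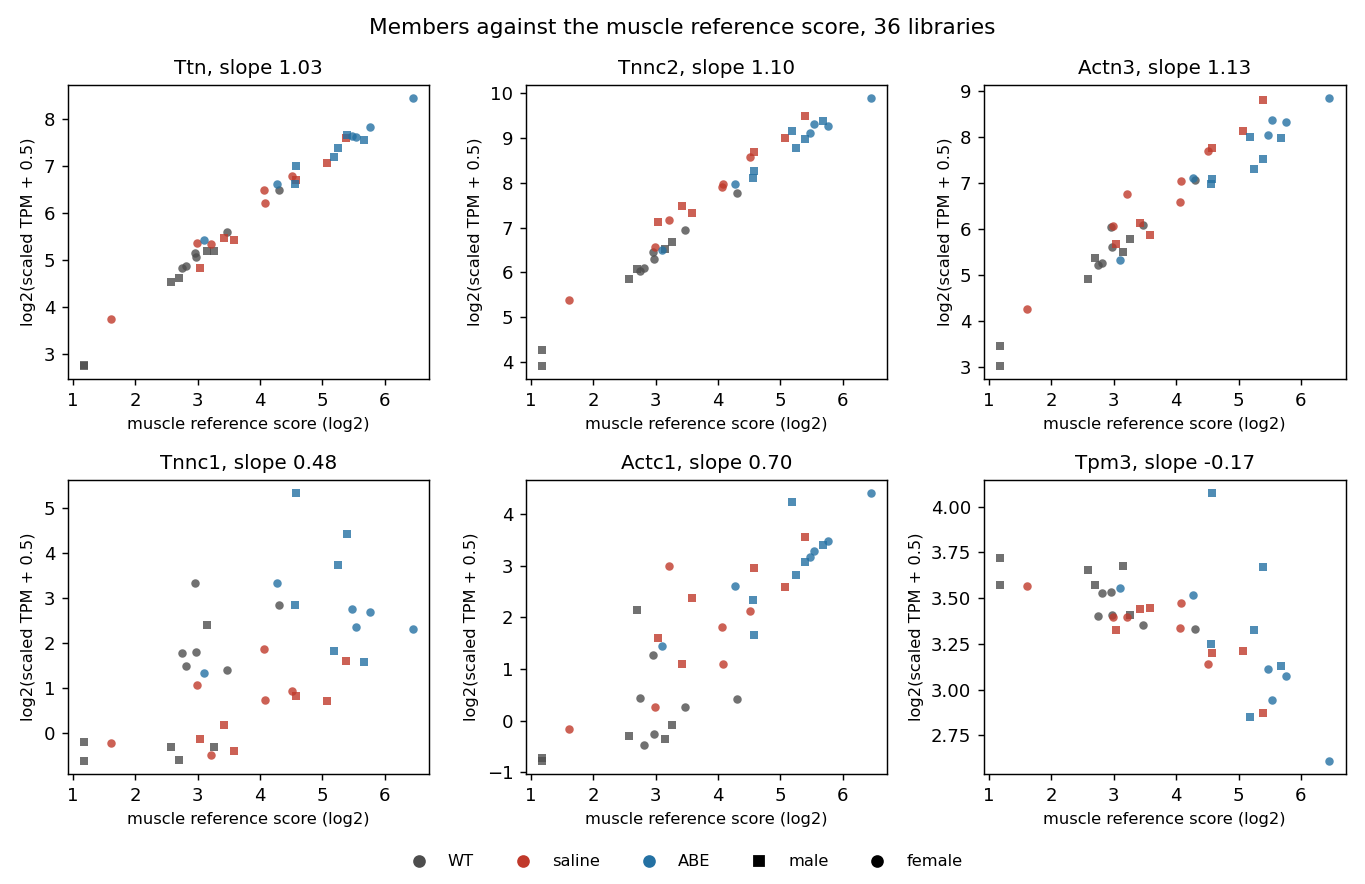
Log2(scaled TPM + 0.5) of 6 members against the muscle reference score (log2) in the 36 libraries, coloured by group with squares for males and circles for females. *Ttn*, *Tnnc2* and *Actn3* rise along the score with slopes of 1.03, 1.10 and 1.13, *Tnnc1* and *Actc1* scatter widely with slopes of 0.48 and 0.70, and *Tpm3* is flat to falling at -0.17.

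With the score added to the model, saline against WT left 14 of 38 members higher and 2 lower at equal score, where 24.8% of all genes were higher and 21.4% lower. *Actc1* (1.01, SE 0.32, adjusted p = 0.0103), *Myom3* (0.71, SE 0.20, adjusted p = 0.00433), *Des* (0.66, SE 0.087, adjusted p = 2.76e-07), *Actn2* (0.63, SE 0.15, adjusted p = 0.000986), *Tnnc2* (0.53, SE 0.076, adjusted p = 1.08e-06) and *Myom2* (0.52, SE 0.063, adjusted p = 5.12e-08) were the largest. The other 8 were *Smpx*, *Klhl41*, *Tcap*, *Actn3*, *Myot*, *Ldb3*, *Tpm1* and *Neb*, at 0.45 down to 0.25. The 2 lower were *Lmod3* (-0.20, adjusted p = 0.0326) and *Unc45b* (-0.18, adjusted p = 0.00497). *Actn2*, *Tnnc2*, *Myom2* and *Des* kept their call under all 11 other settings, and *Actn3* was called in 7 of the 36 fits that left out 1 library. The slow troponins did not pass here (*Tnnc1* -1.03, adjusted p = 0.0748, *Tnni1* -0.57, adjusted p = 0.181, *Tnnt1* -0.36, adjusted p = 0.483). Subtracting the score, in place of fitting it, gave 4 higher and 6 lower, and then all 3 passed as lower (*Tnnc1* -1.55, adjusted p = 0.0158, *Tnni1* -1.37, adjusted p = 0.0192, *Tnnt1* -1.11, adjusted p = 0.0339), as did *Tpm3* (-1.21, adjusted p = 0.028). Subtraction takes a slope of 1 for every gene, and the mean score was higher in saline (3.79) than in WT (2.78). Genes with lower slopes, such as *Tpm3* (-0.17), *Tnni1* (0.21), *Tnnt1* (0.26) and *Tnnc1* (0.48), are thereby shifted down. These passes therefore cannot separate a departure from a low slope, and the same limit holds for the comparisons of ABE below. Over the 11 other settings, subtraction included, *Tnnc1* passed in 4, *Tnni1* in 3 and *Tnnt1* in 1.

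Between ABE and WT, 10 members were higher at equal score and 0 lower, where 15.7% of all genes were higher and 13.2% lower, and 2 were lower at an unadjusted p under 0.05 and 0 by limma-voom. The 10 were *Actc1* (1.22), *Csrp3* (0.94), *Lmod2* (0.80), *Myom3* (0.70), *Tcap* (0.55), *Flnc* (0.52), *Smpx* (0.42), *Lmod3* (0.37), *Des* (0.33) and *Myom2* (0.30). The adjusted p was 0.00713 for *Lmod2* and 0.00243 for *Tcap*, which alone were called under all 11 other settings. Subtracting the score kept the number at 10 but gave 4 higher and 6 lower, and array weights gave 12 higher and 3 lower. The count was 5 without WT replicate 2, and 6 without WT replicate 9, ABE replicate 2 or ABE replicate 9.

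Between ABE and saline, 3 members were higher and 7 lower at equal score, where 2.32% of all genes were higher and 0.849% lower. The 7 lower were *Actn3* (-0.64, SE 0.13, adjusted p = 0.00732), *Tnnc2* (-0.44, adjusted p = 0.00274), *Tnni2* (-0.38, adjusted p = 0.00607), *Tnnt3* (-0.34, adjusted p = 0.00732), *Des* (-0.33, adjusted p = 0.041), *Acta1* (-0.32, adjusted p = 0.0308) and *Neb* (-0.28, adjusted p = 0.0448). Of these 7, 4 are fast isoforms, and 0 of the 7 slow genes were lower. The 3 higher were *Tnni1* (1.27, SE 0.36, adjusted p = 0.0449), *Lmod3* (0.58, SE 0.082, adjusted p = 9.4e-05) and *Myoz3* (0.30, adjusted p = 0.0103). Of these, *Tnni1* reached the filter only through ABE, so its call carries no weight. *Tnnc1* (1.69, SE 0.50, adjusted p = 0.0532) and *Tnnt1* (1.39, adjusted p = 0.0561) missed. No member's departure in this comparison held under all 11 other settings: with the myosin genes as reference 0 were called, with TPM as deposited 16 and with array weights 18. *Tnni1* was called in 15 of the 36 fits that left out 1 library, the count was 6 without saline replicate 7 and 15 without saline replicate 3.

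**Figure D5:**
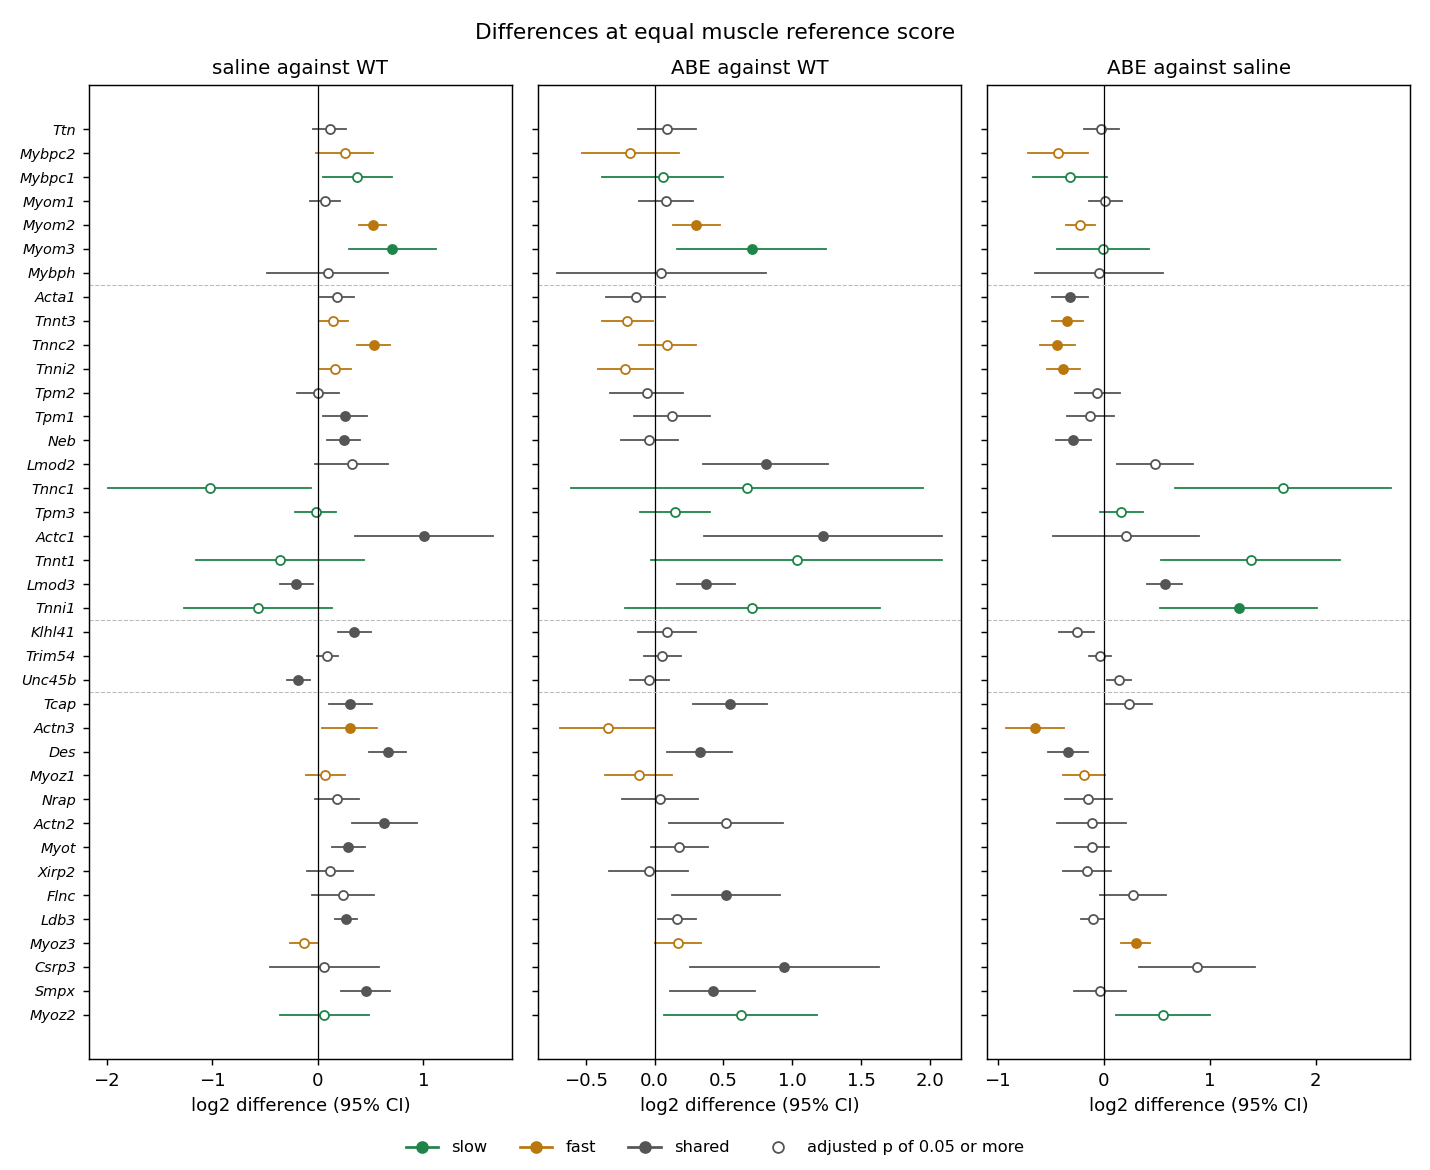
Differences in log2(scaled TPM + 0.5) at equal muscle reference score with 95% confidence intervals for the 38 genes in the 3 comparisons, with filled points for an adjusted p under 0.05 and colour for slow, fast and shared genes. Filled points number 16, 10 and 10, *Actc1* is at 1.01 and 1.22 in the comparisons with WT, and *Actn3*, *Tnnc2*, *Tnni2* and *Tnnt3* lie left of 0 in ABE against saline.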

How the data were processed

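The authors aligned reads of stranded poly(A) libraries to GRCm38 with STAR (2.73a in the submitters' processing notes) and counted them on GENCODE M24 genes with QoRTs. Their deposited table holds TPM, whose calculation is not given in the sources used here, for 56246 genes in 36 libraries. The authors tested differences with DESeq2 and sex as covariate. Whole reads were recovered from the TPM (gene length less 218 bp, 100% whole within 0.01) for depth and a limma-voom alternative, and 0 pairs of libraries were identical.

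TPM were rescaled by median ratios, 0.5 was added before log2, and the 15900 genes averaging 0.5 scaled TPM or more were fitted with limma (3.58.1, R 4.3.3, trend) on all libraries with sex as covariate, called at a Benjamini-Hochberg adjusted p of 0.05. Differences on this scale understate changes of scarce genes. Further fits added the muscle reference score or group by sex terms. Ratios were tested by permuting groups within sex (100000 resamples, two-sided, adjusted over 15). The fits and the permutation test were tested on simulated data. Positions are those of GENCODE M21 on GRCm38, with start regions from RefSeq.

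Members, lists and tests were chosen with earlier results of these data known. Any member could be named, with full statistics for the most abundant, the slow and fast pairs, the largest departures and members called nowhere. Alternatives were other pseudocounts, no filter, TPM as deposited, array weights, fits on 2 groups, other references, limma-voom and each library left out.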

Additional observations from a re-analysis of the deposited data

Results flagged for a closer look

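The effect of ABE against WT on *Tnnc1* differed between the sexes by the test of the difference itself. The male effect minus the female effect was 2.88 on the log2 scale (SE 0.79, adjusted p = 0.038, limma with group by sex terms), with an effect of 3.23 in males and 0.35 in females. Of the 38 members it alone passed in the 3 comparisons, where 3.81% of all genes passed in ABE against WT. The other slow troponins had smaller differences in the same direction that missed, at 1.83 for *Tnni1* (adjusted p = 0.0588) and 1.98 for *Tnnt1* (adjusted p = 0.0791). In WT, *Tnnc1* was 0.146 to 0.365 scaled TPM in 5 of 6 males and 2.14 to 9.50 in females. In ABE its mean was 14.3 in males, with replicates 9 and 11 at 39.7 and 21.0, and 5.46 in females. The share of each group in the difference was not tested. With no filter on low values 0 of 38 members passed.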

How the results depend on the processing

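No paired analysis was possible because the labels give the mice no replicate numbers shared between groups. The library planned to be left out as the one with the smallest scaling factor was named as ABE replicate 2, but that library is ABE replicate 1, so leaving out replicate 1 was added after the data were seen. It gave 30, 37 and 27 members called and 16, 11 and 14 departing in the order saline against WT, ABE against WT, ABE against saline. Leaving out each library in turn gave 27 to 33, 37 to 38 and 25 to 36 members called, and 14 to 18, 5 to 12 and 6 to 15 departing. Over the other settings, 974 of 1026 differences of single members kept direction and side of the threshold, 37 were lost, 14 gained and 1 reversed (*Tnnt1*, saline against WT, 0.051 with array weights). With 1 library left out, *Tnnt1* in saline against WT ran from -0.20 to 0.049, above 0 without WT replicate 3, 6 or 10, and the departure of *Tpm3* from -0.041 to 0.0015, above 0 without WT replicate 6 or saline replicate 9. The cause of these changes was not tested.

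Members called in ABE against saline fell to 14 with TPM as deposited. Departures in saline against WT numbered 30 with the myosin genes as reference (28 higher) and 10 with the reference subtracted (4 higher). Between ABE and WT they numbered 6 with no filter, 3 with only the 2 groups and 6 with limma-voom. Between ABE and saline they numbered 16 with TPM as deposited, 6 with no filter, 18 with array weights, 2 with only the 2 groups, 0 with the myosin reference and 4 with the reference subtracted. Sex differences in ABE against WT numbered 3 with TPM as deposited, 2 with a pseudocount of 0.1 and 0 with no filter.

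Departures reversed in saline against WT for *Lmod3* (0.18) and *Unc45b* (0.19) with the myosin reference. Between ABE and WT *Tpm3* reversed with TPM as deposited (-0.64), *Tnnc1* (-0.093) and *Tpm3* (-0.015) with the myosin reference, and *Tnnt1* (-0.69), *Tnni1* (-1.14), *Tnnc1* (-0.53), *Tpm3* (-2.58), *Myom3* (-0.26), *Lmod3* (-0.13), *Csrp3* (-0.054) and *Smpx* (-0.081) with the reference subtracted. Between ABE and saline *Tpm3* reversed with TPM as deposited (-0.32) and with the reference subtracted (-1.37).

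Of the ratios, *Tnnt1*/*Tnnt3* in saline against WT missed the threshold in males alone (-1.92) and females alone (-0.93), and in ABE against saline turned to -0.35 in females. *Tnni1*/*Tnni2* in saline against WT missed without pseudocount (-1.51) and in females (-1.07). Against WT, ABE gave 0.55 without pseudocount, and passed with a pseudocount of 1 (-1.67) and permuted without sex (-1.37). Against saline, ABE gave 2.05 without pseudocount, -0.052 with a pseudocount of 1 and -0.64 in females. *Tnnc1*/*Tnnc2* missed in saline against WT in females (-2.13) and was 0.016 in males in ABE against WT. In ABE against saline it passed without pseudocount (1.98), with a pseudocount of 0.1 (1.80), with TPM as deposited (1.41) and permuted without sex (1.33), and was 1.49 without ABE replicate 1 and 1.27 without ABE replicate 2. *Myoz2*/*Myoz1* was 0.19 in saline against WT without pseudocount. In ABE against WT it was 0.63 without pseudocount, 0.076 with a pseudocount of 0.1 and -1.02 with a pseudocount of 1, where it passed, and in ABE against saline 0.44 without pseudocount, 0.29 with a pseudocount of 0.1, 0.029 with TPM as deposited and 0.049 in males. *Mybpc1*/*Mybpc2* was -0.0058 in females in saline against WT.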

Other observations

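Among the genes outside the 38, the myosin genes *Myh7* and *Myl3* had the same signs as the slow troponins in saline against WT and ABE against saline. *Myh7*, the slow myosin heavy chain, differed by -0.95 in saline against WT (adjusted p = 0.125, limma) and rose by 2.46 in ABE against saline (adjusted p = 0.000884). *Myl3*, a slow light chain, differed by -0.72 (adjusted p = 0.176) and rose by 1.80 (adjusted p = 0.00222). The fast genes *Mylpf* and *Myl1* had differences of 1.65 (adjusted p = 0.0029) and 1.47 (adjusted p = 0.0056) in saline against WT, and *Myh1* had 1.39 (adjusted p = 0.0122). The rest of the myosin list did not pass there. *Myh4* was at 0.87 (adjusted p = 0.117, limma), *Myh2* at 0.85 (adjusted p = 0.108), *Mylk2* at 0.80 (adjusted p = 0.116) and *Myl2* at -0.13 (adjusted p = 0.826). In ABE against saline *Mylpf* missed at 0.98 (adjusted p = 0.0741) and *Myl1* rose by 1.13 (adjusted p = 0.0332). Of the other sarcomere genes, those that fell were forms made in many non-muscle cells: *Flna* fell in all 3 comparisons (-0.37, -0.74 and -0.38), and *Actn1* (-0.29) and *Actn4* (-0.19) fell in ABE against saline. Against WT, *Actn4* rose in saline (0.24, adjusted p = 0.000963, limma) and did not pass in ABE, and *Actn1* passed in neither. *Capzb* rose over WT in saline (0.27) and ABE (0.30).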
